A study of Mus musculus with 2 samples.

Results

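Cacna2d1 encodes the alpha2delta-1 protein, an auxiliary subunit of voltage-gated calcium channels, and 26 of the 9271 peaks of YTHDF2 enrichment lay over its gene body. The members are the deposited peaks that overlap by at least 1 bp the annotated body of the gene, ENSMUSG00000040118.15, on the forward strand of mouse chromosome 5 (mm10, chr5:15934691-16374511, 439.8 kb). They were numbered 1 to 26 from the 5′ end of the gene. They were thus chosen by their measured enrichment of RIP over input, and every value of it given here is a description without a test.

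The study used C2C12, a mouse myoblast line that fuses into myotubes in low serum, here wild-type, differentiated and given no other treatment. An anti-YTHDF2 antibody was used to pull down the protein with its RNA (RIP, RNA immunoprecipitation), and the recovered material was sequenced as 1 YTHDF2 RIP library, which was set against 1 input library of the same kind of cells. Both carry the batch label 1, and there was no replicate, so no difference could be compared with replicate spread. The comparison asks where in the transcriptome YTHDF2 was bound.

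The alpha2delta subunit is a largely extracellular, membrane-anchored protein that raises the surface density of calcium channels and changes their gating. In skeletal muscle it belongs to the L-type channel of the transverse tubule, with the pore subunit Cacna1s, the beta subunit Cacnb1 and the gamma subunit Cacng1, and it is the receptor of gabapentin and of thrombospondins. YTHDF2 is a mainly cytoplasmic reader of N6-methyladenosine (m6A), the methylated base found in the DRACH consensus, and it recruits the deadenylation machinery to the RNAs it binds.

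The sequences that follow are the gene-strand reference of the peaks to which the results return, 5′ to 3′, from the RefSeq copy of GRCm38.p6, the assembly that mm10 is made from. Peak 3 had the highest fold enrichment, and peak 19 was one of the pair with the fewest fragments. Capitals mark the longest run of letters that peaks 3 and 19 have in common, 17 bases on the same strand. Repeats, the soft-masked bases of the reference, cover 51.9% of peak 3 and 89.2% of peak 19. The origin of the run was not tested.
peak 3, chr5:15996996-15997205, forward strand: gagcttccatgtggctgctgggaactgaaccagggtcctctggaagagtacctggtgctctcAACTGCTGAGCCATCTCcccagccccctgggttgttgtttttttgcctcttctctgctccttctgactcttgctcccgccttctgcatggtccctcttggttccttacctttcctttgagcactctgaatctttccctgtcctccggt
peak 19, chr5:16203882-16204067, forward strand: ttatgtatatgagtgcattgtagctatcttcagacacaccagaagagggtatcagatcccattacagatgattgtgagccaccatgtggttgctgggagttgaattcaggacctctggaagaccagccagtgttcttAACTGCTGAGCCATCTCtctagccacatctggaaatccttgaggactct

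Peak 26 was the last along the gene and touched an exon of a retained-intron transcript. Peak 16 was among the 5 highest folds at the lowest background of those 5, and peak 21 held the most DRACH matches. Capitals mark every DRACH match, read as A, G or T, then A or G, then AC, then A, C or T. Matches that overlap or adjoin run together.
peak 16, chr5:16138738-16138945, forward strand: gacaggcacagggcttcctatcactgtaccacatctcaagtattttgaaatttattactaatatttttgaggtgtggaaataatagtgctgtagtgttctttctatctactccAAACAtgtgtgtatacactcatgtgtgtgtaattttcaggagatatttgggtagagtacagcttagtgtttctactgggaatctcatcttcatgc
peak 21, chr5:16253330-16253597, forward strand: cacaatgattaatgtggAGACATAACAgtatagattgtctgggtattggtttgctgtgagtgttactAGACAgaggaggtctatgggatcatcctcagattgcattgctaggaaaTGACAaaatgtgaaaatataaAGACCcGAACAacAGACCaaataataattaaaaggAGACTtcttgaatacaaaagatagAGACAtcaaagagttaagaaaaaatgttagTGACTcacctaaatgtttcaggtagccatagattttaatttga
peak 26, chr5:16326075-16326261, forward strand: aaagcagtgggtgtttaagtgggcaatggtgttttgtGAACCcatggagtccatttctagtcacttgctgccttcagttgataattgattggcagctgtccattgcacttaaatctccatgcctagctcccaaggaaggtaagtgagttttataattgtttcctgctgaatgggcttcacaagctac

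The peaks spread over most of the gene but left both ends free. Peak 1 began 24.0 kb after the gene start, and peak 26 ended 48.25 kb before the gene end. The gaps between neighbours ran from 311 to 45507 bp, with a median of 9336 bp. Of the 25 gaps, 14 were under 10000 bp and 2 under 1000 bp. Together the peaks covered 6071 bp, 1.38% of the body, at 5.91 peaks per 100 kb.

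**Figure D1:**
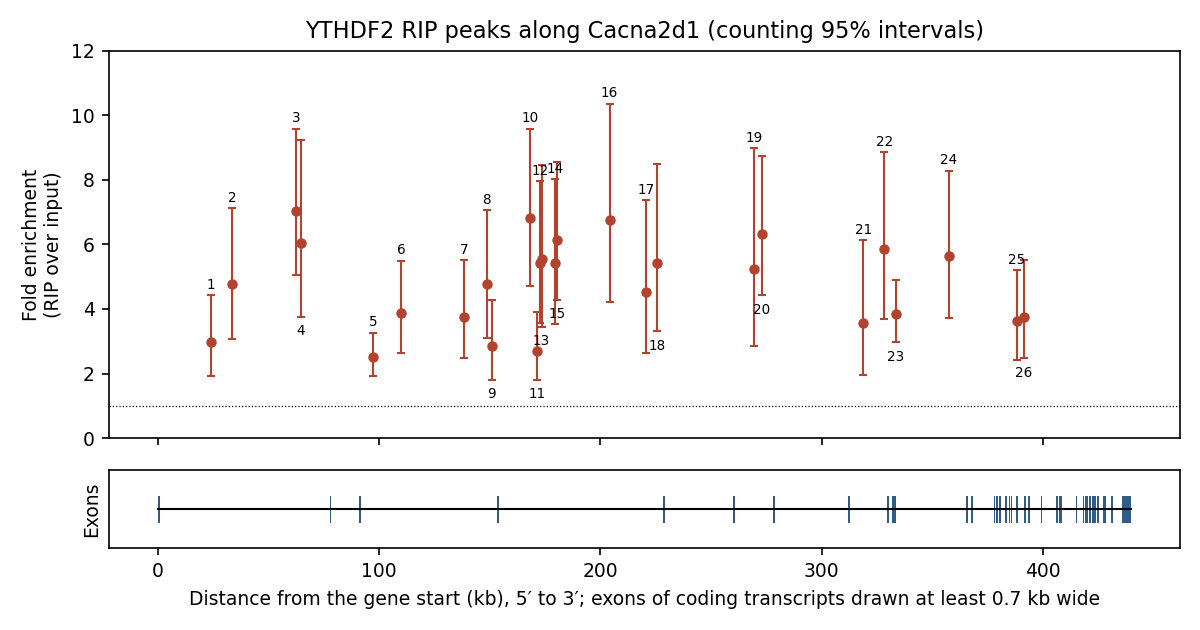
Fold enrichment of YTHDF2 RIP over input (vertical axis, linear) of the 26 peaks by distance from the gene start in kb. Points are the authors' folds, bars are 95% counting intervals, the dotted line marks a fold of 1, and the lower strip shows exons of coding transcripts as ticks. All intervals lie above 1, but the peaks were called for an excess of RIP over input, so this is not a test. The first and last stretches of the gene hold no peak.

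All 26 peaks lay outside the exons of the 8 coding transcripts. These exons make up 8389 bp, 1.91% of the body. At the mean density of the gene 0.496 peaks, taken as points without width, would fall in them. Peaks have width, so the number that would touch an exon by at least 1 bp is higher and was not computed. A count of 0 of 26 allows a share of up to 11.5%, so the depth of this peak list cannot separate an absence from a share of that size. Of the 26, 24 were intronic by every annotated transcript of Cacna2d1. Peaks 23 and 26 touched exons of its retained-intron transcripts, of which it has 4. Peaks 3, 12 and 13 touched exons of other annotated genes. The last exon, 3947 bp long at chr5:16370558-16374504, held no peak. The labels' protocol words the library steps for DNA and names no step to remove it, and the files do not record strand, so RNA of either strand and DNA cannot be told apart at these peaks. Cacna2d1 was absent from the authors' deposited table that pairs peaks with genes, with 0 entries. Cacnb2, Atp2a2, Dysf and Srl, named below and also without a peak on an exon, were absent too, as was Ttn with 1 on an exon.

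The peaks fell in 6 of the 37 introns of the principal coding transcript. Intron 3, the longest at 137 kb, held 14 of them, 53.8% (Wilson 95% interval 35.5 to 71.2), where it makes up 31.7% of the intron bases. The interval takes peaks as independent draws, which neighbouring peaks may not be, and the difference was not tested. Intron 1, 77.3 kb long, held 4, and introns 5, 7, 10 and 18 held 2 each. Intron 18, only 6.15 kb long, was the most crowded per length, at 32.5 peaks per 100 kb from 2 peaks. Intron 4 (31.7 kb) and intron 6 (33.7 kb) held none, while introns 5 (18.1 kb) and 7 (17.5 kb) held 2 each, and these counts are too small to rank the introns. The other 31 introns, 144 kb in all, held no peak, and 19 of them lie after intron 18.

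**Figure D2:**
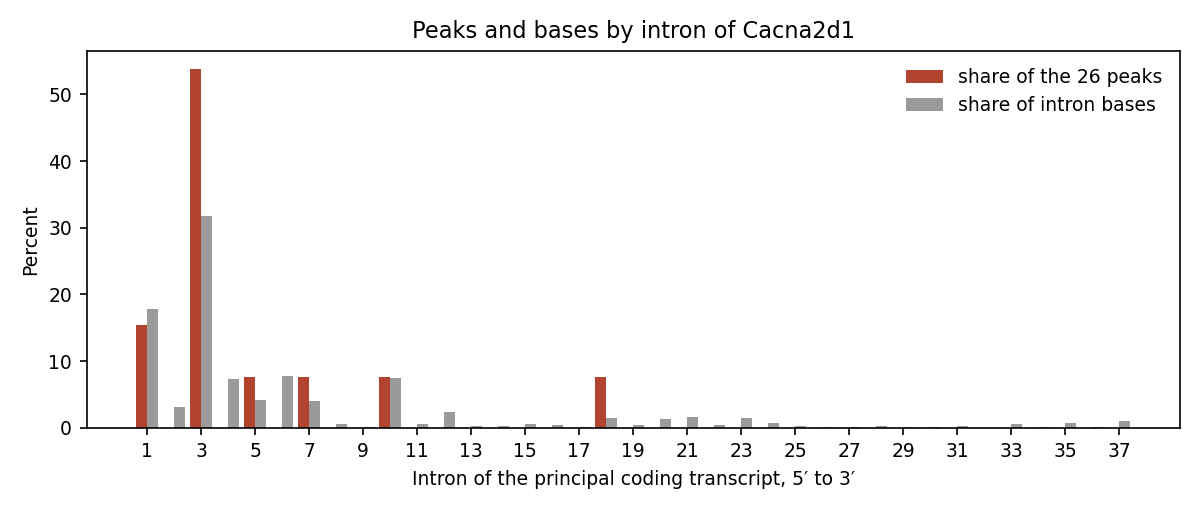
Share of the 26 peaks (red) and share of all intron bases (grey), both in percent, for each of the 37 introns of the principal coding transcript, 5′ to 3′. Intron 3 holds 53.8% of the peaks and 31.7% of the bases, and introns 4 and 6 hold bases but no peak.

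Fold enrichment is the authors' linear ratio of the RIP pileup at the summit over the local input background, with 1 added to each. Its median over the 26 peaks was 5.01 (quartiles 3.77 and 5.80, range 2.53 to 7.04), against 4.40 (3.34 and 5.64, range 1.24 to 20.7) over the 9245 other peaks. Peaks over Cacna2d1 rested on fewer RIP fragments, with a median of 23.5 at the summit (range 11 to 63) against 29 (8 to 349) elsewhere. Their input background was also lower, at a median of 3.44 against 5 scaled fragments. At a fold of 4 or more stood 16 of the 26, 61.5% (Wilson 42.5 to 77.6), beside 59.6% of all peaks of the series. At a q-value of 1e-05 or less stood 17, 65.4% (46.2 to 80.6), beside 71.5% of all peaks. Both shares are near those of the whole list. Their intervals, like that for intron 3, take peaks as independent draws, which neighbouring peaks may not be.

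**Figure D3:**
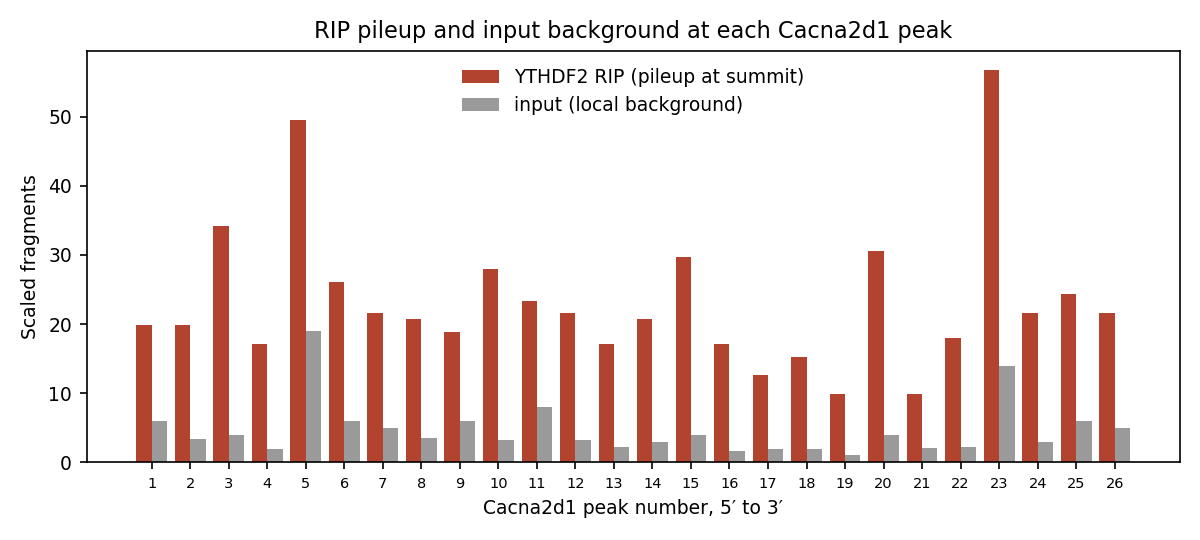
YTHDF2 RIP pileup at the summit (red) and local input background (grey), both in scaled fragments, for each of the 26 peaks, 5′ to 3′. Peaks 23 and 5 have the tallest RIP bars, at 56.7 and 49.5, and also the highest input, at 14 and 19.

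The 5 peaks of highest fold were peaks 3, 10, 16, 20 and 15. Peak 3, in intron 1, had 38 RIP fragments, a pileup of 34.2 against an input background of 4, and a fold of 7.04 (95% counting interval 5.04 to 9.59). It ranked at place 794 of the whole list by fold and had a q-value of 1.03e-16, the authors' value. Peak 3 also overlaps an exon of Gm43000, an antisense gene on the reverse strand. The files do not record the strand of fragments, so reads of Cacna2d1 and of Gm43000 cannot be told apart there.

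Peak 10, in intron 3, was the widest, at 527 bp (chr5:16102671-16103197). It had 31 fragments, a pileup of 27.9 against an input background of 3.24 and a fold of 6.82 (4.71 to 9.58). Peak 16, also in intron 3, had 19 fragments, a pileup of 17.1 against 1.67 and a fold of 6.77 (4.22 to 10.4). Its fold was thus close to that of peak 10 with fewer fragments over a thinner input, which its wider interval shows.

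Peak 20, in intron 5, had 34 fragments, a pileup of 30.6 against 4 and a fold of 6.32 (4.44 to 8.75). Repeats cover 94.6% of it, and 33.3% of its 31-base words occur once in the genome. Peak 15, in intron 3 at chr5:16114995-16115200, had 33 fragments, a pileup of 29.7 against 4 and a fold of 6.14 (4.29 to 8.54). Repeats cover 68.4% of peak 15, yet all of its 31-base words occur once in the genome. The interval of peak 3 overlapped those of 20 of the other 25 members, so the order among the high folds was not resolved at this depth.

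Peaks 5, 11, 9 and 1 had the lowest folds, over input backgrounds of 6 to 19. Peak 5, in intron 3 at chr5:16031774-16032038, had 55 fragments, a pileup of 49.5 against an input background of 19 and a fold of 2.53 (1.91 to 3.27). Peak 11, in the same intron at chr5:16105949-16106265, had 26 fragments, a pileup of 23.4 against 8 and a fold of 2.71 (1.81 to 3.92). Peak 9, also in intron 3, at chr5:16085482-16085667, had 21 fragments, a pileup of 18.9 against 6 and a fold of 2.84 (1.81 to 4.27), and 57.7% of its 31-base words occur once in the genome. Peak 1, the first along the gene, at chr5:15958695-15958913, had 22 fragments, a pileup of 19.8 against 6 and a fold of 2.97 (1.92 to 4.43). The interval of peak 5 lay below that of peak 3, without overlap.

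Peak 23 had the most fragments, 63, with a pileup of 56.7 against an input background of 14, a fold of 3.85 (2.97 to 4.90) and a q-value of 1.26e-13, the authors' value. It lies in intron 10. The fewest fragments, 11, were shared by peaks 19 and 21. Peak 19 had a pileup of 9.90 against 1.08, the lowest background in the whole list, and a fold of 5.24 (2.85 to 8.99). The nearest upstream peak, over Sema3e, and the highest peak over Trdn had the same background. Whether 1.08 is a local input level or a floor set by the caller is not recorded. Only 31.4% of the 31-base words of peak 19 occur once in the genome. Peak 21 had the same pileup against 2.05, a fold of 3.58 (1.95 to 6.14) and a q-value of 0.0247, the authors' value. After peaks 23 and 5, the most fragments belonged to peaks 3, 20, 15 and 10, which are among the 5 highest folds.

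Peaks 25 and 26, the last pair, lie beside alternatively used exons. Peak 25, at chr5:16322754-16323157, begins 159 bp after an exon of 57 bp (chr5:16322539-16322595) that 1 coding transcript includes. It had 27 fragments, a pileup of 24.3 against 6 and a fold of 3.61 (2.43 to 5.19). Peak 26 ends 51 bp before exon 19, and had 24 fragments, a pileup of 21.6 against 5, a fold of 3.77 (2.47 to 5.52) and a q-value of 3.36e-05, the authors' value. Exon 19 has acceptors 15 bases apart, giving a form of 72 bp in 4 coding transcripts and one of 57 bp in 3. The reference around them is shown with the exon bases of the longer form in capitals, since it is the coding-transcript exon nearest to any member. Splicing itself was not measured.
exon 19 acceptor, chr5:16326282-16326346, forward strand: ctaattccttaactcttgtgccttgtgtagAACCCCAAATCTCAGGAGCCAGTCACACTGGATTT

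Along the gene, folds were higher in the middle. The first, middle and last 147 kb held 7, 13 and 6 peaks, with median folds of 3.87, 5.43 and 3.81. A fold of 4 or more was reached by 3, 11 and 2 of them. Median fragments were nearly equal in the 3 stretches, at 24, 23 and 24, while the median input background was 5, 3.16 and 4. The part of input in the difference between stretches was not tested.

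Over the 26 peaks, fold and input background had a Pearson r of -0.60 and a Spearman rho of -0.55. These points share 1 pair of libraries, and fold is computed from the background, so the relation is a description. The 9245 other peaks had an r of -0.51 and a rho of -0.77. Fold was hardly related to the number of RIP fragments (r -0.14, rho 0.01), while fragments followed background (r 0.84, rho 0.76). Fold also had weak relations to GC content (r 0.29, rho 0.24), repeat cover (r 0.06, rho 0.15) and position (r -0.01, rho 0.06).

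Set beside other peaks of like background, the folds over Cacna2d1 were not higher. Under a background of 4 the median fold was 5.43 for 14 members against 5.70 for 3565 other peaks. From 4 to 8 it was 3.77 for 9 members against 4.36 for 2518, and at 8 or more 2.71 for 3 members against 3.07 for 3162. These classes of background were chosen after seeing the data. The higher median fold of the gene as a whole thus stood beside a larger share of peaks over low input.

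**Figure D4:**
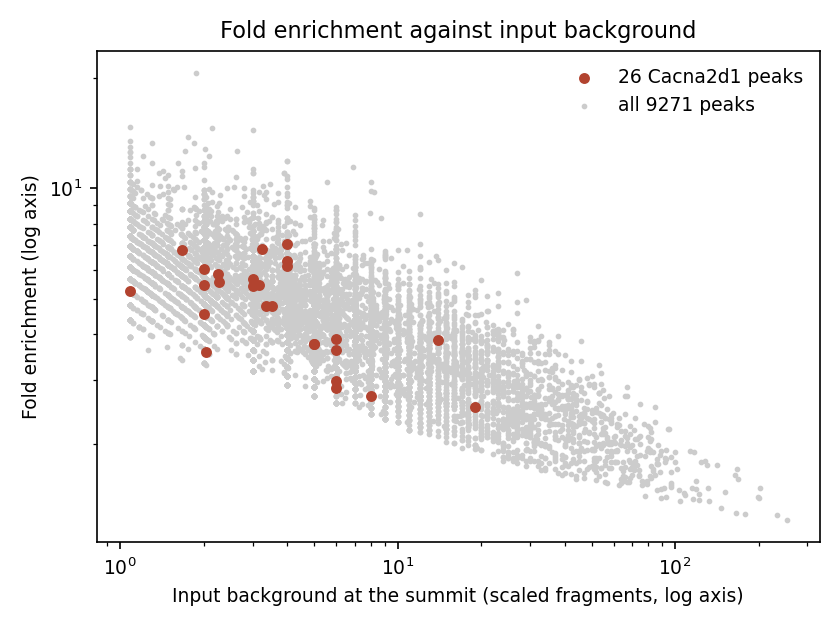
Fold enrichment against local input background at the summit (scaled fragments), both on log axes, for the 26 Cacna2d1 peaks (red) and all 9271 peaks (grey). The members lie within the cloud of all peaks, from a fold of 7.04 at a background of 4 to 2.53 at 19.

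In base composition the peaks held less A than the gene around them. On the gene strand A made up 24.9% of peak bases, against 30.8% in windows of the same width on either side and 29.7% of the gene body. Less A than in its own windows was seen in 22 of 26 peaks and more in 4. More C was seen in 19 and less in 7. More G was seen in 16 and less in 9, and more T in 15 and less in 11. The share of all peaks of the series with less A than their windows is not given here. G made up 23.3% of peak bases against 21.9% beside them, C 18.8% against 16.8% and T 33.1% against 30.4%. The 6440 intron peaks of the rest of the series differed in the same directions, with 24.9% A against 29.2% beside them and 24.1% G against 20.8%.

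The density of the m6A consensus was read on both strands, in the peaks and in windows beside them. DRACH stood at 17.1 per kb in peaks, against 17.3 in adjacent windows, 16.3 in windows 5 widths away and 19.3 over the gene body, all on the gene strand. GGACH, the narrower form of GGAC followed by A, C or T, every match of which is also a DRACH match, had 14 matches in peaks, 2.31 per kb, against 2.22 in adjacent windows, 1.32 in windows 5 widths away and 1.88 over the body. On the opposite strand DRACH stood at 25.2 per kb in peaks, against 21.2 in adjacent windows, 22.4 in windows 5 widths away and 22.5 over the body. GGACH stood there at 2.14 per kb, from 13 matches in peaks, against 1.32, 2.06 and 2.01 in the same order. Differences between the strands were not tested and for GGACH depended on the windows used. The strand of the fragments is not recorded, so neither strand can be preferred. All 26 peaks held a DRACH match, from 1 to 10 each, and 12 held a GGACH match on the gene strand. No share over all peaks or gene windows is given for these whole-peak counts. DRACH is common along the gene, at 19.3 per kb, so a match in every peak does not set the members apart. In the central 186 bp, the length of the shortest peak, 9 of 26 held GGACH on the gene strand, 34.6%, beside 29.0% of 2364 consecutive windows of that length along the gene. On either strand it was 12 of 26, 46.2% (Wilson 28.8 to 64.5), against 50% of those windows and 60.1% of all peaks of the series. The interval again takes peaks as independent draws. A match is a description and not a methylated site.

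Peak 3 had 0 GGACH matches on the gene strand and 3 on the opposite strand, which is the strand of Gm43000. In the printed sequences, peaks 16 and 26 show 1 DRACH match each, with folds of 6.77 and 3.77, and peak 21 shows 10, with a fold of 3.58. Over the 26 peaks the number of DRACH matches and fold had an r of -0.21 and a rho of -0.16.

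Repeats covered the peaks about as much as the gene. Soft-masked bases made up 28.3% of peak bases, against 29.0% of the body. Peak 6, at chr5:16044402-16044656, was masked throughout and 1 of its 31-base words occurs 15471 times in the genome. It had 29 fragments, a pileup of 26.1 against 6 and a fold of 3.87 (2.64 to 5.50). Over the gene body 88.9% of 31-base words were single-copy. All 31-base words were single-copy in 19 of the 26 peaks, and at least 90% of them in 21. The median fold was 5.42 in those 21 and 3.87 in the other 5. How the authors' alignment placed reads that match several sites is not given in the sources used here, and its part in these folds was not tested.

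Peaks 12 and 13, in intron 3 of Cacna2d1, touch an exon of Gm43490, an unverified transcript on the forward strand. Peak 12 had 24 fragments and a fold of 5.43 (3.57 to 7.96), and peak 13 had 19 and 5.54 (3.46 to 8.47). Without these and peak 3, 23 peaks remain with a median fold of 4.78, an alternative chosen after seeing the data.

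Among 21938 protein-coding genes, 15% had at least 1 peak over the body and 6.01% had a peak that touches an exon of a coding transcript. Cacna2d1, with 26 and 0, was chosen for its peaks, so its place is a description. There were 8 genes with more peaks, from Brinp3 with 159 and Thsd7a with 45 to Ghr and Zfpm2 with 30 each. Among the 458 genes within 1.5 times its length, 34.5% had a peak, with a median of 3 peaks in those that did and 0.814 per 100 kb, against 26 and 5.91 for Cacna2d1. Only Brinp3, Thsd7a and Zfpm2 of these had as many or more. Of the 19 genes with 20 or more peaks, 10 had 0 on coding-transcript exons.

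**Figure D5:**
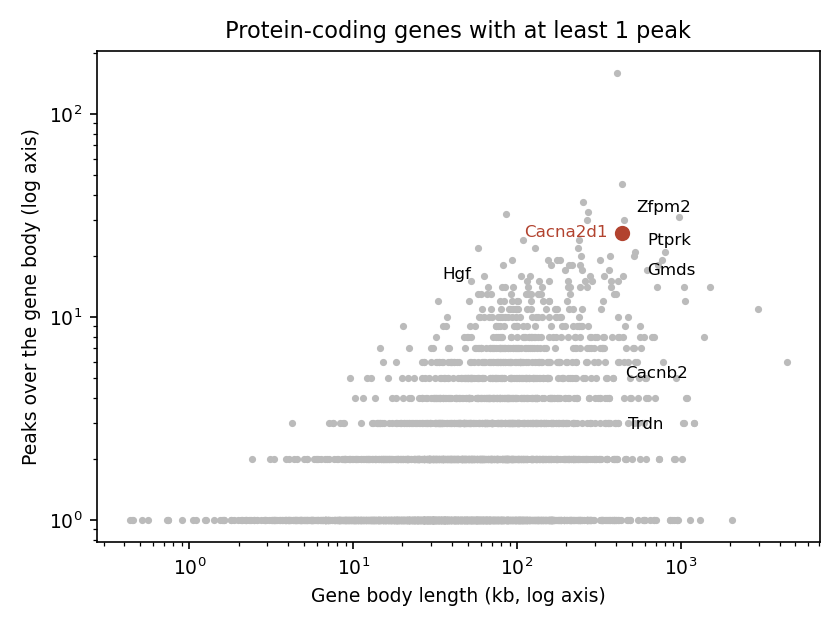
Number of peaks over the gene body against gene length in kb, both on log axes, for protein-coding genes with at least 1 peak (grey points), with Cacna2d1 in red. Cacna2d1 has 26 peaks in 439.8 kb, beside Zfpm2 with 30 in 449.6 kb, while Cacnb2 has 5 in 384.8 kb.

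The 3 genes most like it in length, number of peaks and median fold, by the smallest sum of absolute log2 ratios, were Zfpm2 (0.293), Ptprk (0.634) and Gmds (0.653). Zfpm2, a cofactor of GATA transcription factors, had 30 peaks, 1 of them touching an exon, and a median fold of 4.83 (range 2.41 to 8.30). Ptprk, a receptor tyrosine phosphatase, had 21 peaks and 0 on exons, with a median of 4.75. Gmds, an enzyme of GDP-fucose synthesis, had 20 and 0, with a median of 4.89. Likeness was measured on 3 values per gene from 1 pair of libraries.

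No peak lay close to either end of the gene body. Upstream, the nearest protein-coding gene, Speer4c, lies 220 kb away and had no peak. The nearest peak on that side was 1876 kb away over the semaphorin gene Sema3e. Its fold was 6.10 (3.47 to 10.1), over the lowest background of the list, 1.08. Downstream, the hepatocyte growth factor gene Hgf, 179 kb away, had 14 peaks in 66.7 kb, or 21 per 100 kb, with a median fold of 4.40. Its highest, at chr5:16607422-16607689, reached 9.74 (7.35 to 12.7), above every member over Cacna2d1, although its interval overlaps that of peak 3. Within 200 kb of the body there were 0 peaks upstream and 8 downstream, the nearest of these over Hgf.

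Of 26 listed genes of voltage-gated calcium channels, 2 had a peak, 7.69% beside 15% of all protein-coding genes, and 0 had one on an exon. Cacna2d1, chosen for its peaks, is 1 of these 2, and the median length of the list was 105 kb against 17.4 kb for all. The other was Cacnb2, a beta subunit, with 5 peaks in 384.8 kb, the highest at chr2:14705011-14705200 with 18 fragments and a fold of 7.07 (4.36 to 10.9). The partners of alpha2delta-1 in the skeletal muscle channel, Cacna1s (67.1 kb), Cacnb1 (21.5 kb) and Cacng1 (13.3 kb), had none. Its paralogs Cacna2d2 (130 kb), Cacna2d3 (817 kb) and Cacna2d4 (116 kb) had none either, and nor did the pore subunits Cacna1c (609 kb) and Cacna1d (452 kb). Expression is not measured in these files, so a gene without a peak may be silent, unbound or too thinly covered.

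Genes of the triad, the junction of transverse tubule and calcium store, had a peak in 6 of 24, 25% beside 15% of all protein-coding genes, with a median length of 42.3 kb against 17.4 kb for all. Trdn (triadin), which anchors the calcium release complex, had 3, the highest at 8.26 (5.09 to 12.8) over the lowest background of the list, 1.08. Dysf, of membrane repair, stood at 5.83 (3.44 to 9.35), and Asph, whose locus also encodes junctin, at 4.03 (3.13 to 5.10). Srl (sarcalumenin), a calcium-binding protein of the store, had 3.50 (2.03 to 5.70), the calcium pump Atp2a2 2.93 (2.32 to 3.65) and the counter-ion channel Tmem38b 2.77 (2.36 to 3.22). The release channel Ryr1 (122 kb), the adaptor Stac3 and the calcium buffer Casq1 had none. Of 5 thrombospondins, ligands of alpha2delta-1, only Thbs1 had a peak, 20% beside 15% of all protein-coding genes. The Thbs1 peak had 152 fragments and a fold of 1.92 (1.63 to 2.25), below every member over Cacna2d1. Its input background was 70.9, against at most 19 for the members, and its interval overlaps that of peak 5.

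The labelled cell type was set against its markers as far as peaks allow. Of 10 myotube markers 1 had a peak, Ttn with 3, beside 15% of all protein-coding genes. Of 4 myoblast, 6 neuronal and 6 endothelial and adipocyte markers none had. These lists are too short to be told apart from that share or from each other. Peaks follow binding as well as expression, so these counts do not measure the makeup of the culture.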

How the data were processed

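C2C12 myotubes gave 1 YTHDF2 RIP library and 1 input library, sequenced as paired-end reads, per the labels' protocols. The series' design text names Bowtie for alignment to mm10 and MACS for peak calling. The submitters' processing notes also list DiffBind, deepTools, HOMER, Picard, Trim Galore and FastQC, with versions not given in the sources used here. Library steps are worded for DNA in the labels' protocols, and no step to remove DNA is named. The IgG control in the design text was not analysed here.

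The authors deposited 1 peak list. Per the file headers it gives each peak's summit pileup (a signal), its fold enrichment (a linear ratio) and −log10 of its p-value and q-value. These are the authors' own scores, used only to describe and filter peaks. Depth is unknown. Every pileup was a whole multiple of 0.9 (tolerance 1e-06), so each step was taken as 1 RIP fragment. Input background was computed from pileup and fold, with the caller's 1 added to each. For 100% of peaks the Poisson tail over that background came within 0.01 of the deposited −log10 p-value. Fold intervals are exact 95% Poisson intervals of RIP fragments, cover counting error only and hold background fixed. PCR copies are not independent molecules.

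Genes were GENCODE M21 models, and sequence was RefSeq GRCm38.p6, with positions 1-based. The sequences of some peaks are not reported here. Motifs were searched on both strands, and repeats are the reference's soft-masked bases. Python 3.11.15, numpy 2.4.6, pandas 2.3.3, scipy 1.17.1 and matplotlib 3.10.9 were used, and scripts were tested on simulated data. Members, lists and rules were chosen with earlier results of these data known. Peaks described singly were the 5 highest and 2 lowest folds, the 2 with most and those with fewest fragments, the widest, the first, the last and those touching an exon. Other genes named were listed genes with a peak, the neighbours and the 3 most alike among genes with 10 or more peaks. Peaks 6, 9, 12, 13 and 25, the genes with most peaks and listed genes without one were named after their values were seen. Alternatives were a fold of 4, a q-value of 1e-05, the peak centre, merging under 1000 bp, other exons and other windows.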

Additional observations from a re-analysis of the deposited data

How the results depend on the processing

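With peaks limited to a fold enrichment of 4 or more, Cacna2d1 had 16 peaks, 3.64 per 100 kb and 26.9% of peak bases in repeats. With a q-value of 1e-05 or less it had 17 peaks, 3.87 per 100 kb and 30.5% in repeats. Without either limit the values were 26, 5.91 and 28.3%, and fewer peaks follow from the limits themselves. The GGACH density in peaks over windows beside them was 1.04, and 1.75 with windows 5 widths away, from 14 matches in peaks; the cause was not tested. When a peak had to touch an exon, the triad list had 3 genes in place of 6 and the channel list 0 in place of 2. The other 26 settings moved a value by less than its counting interval or a count by no more than 1.5 times. The median fold stayed between 4.78 and 5.59 and the DRACH ratio between 0.896 and 1.06. Among these settings the GGACH ratio was 0.7 at a q-value of 1e-05 or less and 1.125 at a fold of 4 or more. It thus stood on both sides of 1. No paired analysis was possible because each group has 1 library, and for the same reason no replicate could be left out. Depth limits the order of peaks within the gene, as most intervals overlap.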
